A study of Mus musculus with 6 samples.

Results

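The zinc finger genes with a numbered name (Zfp followed by digits alone) are examined here in primary mouse embryonic fibroblasts (pMEFs) with and without HAT1. Members were chosen on their measured level: a gene entered when its mean over all 6 libraries was at least 1 CPM (CPM is the raw count scaled to the total of its library), and the 300 highest were kept. They were 300 of the 17512 genes in the table. The file held 345 genes with such a name at any level, and 309 of them reached 1 CPM before the limit of 300 was applied. The lowest members were Zfp566 at 1.29 CPM and Zfp14 at 1.30 CPM, and the genes next outside were Zfp964 at 1.26 CPM and Zfp456 at 1.15 CPM. The mean level over both genotypes chose a gene, so a gene low in 1 genotype could enter through the other. Zfp941 did so, with a mean of 1.76 CPM in HAT1 wild-type (WT) lines and 0.896 CPM in HAT1 knockout (KO) lines. The family was picked with earlier results of these data known.

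RNA was sequenced from 3 HAT1 WT lines (36, 47 and 78) and 3 HAT1 KO lines (33, 41 and 72), all on the C57bl6 background. Each line is a culture of fibroblasts grown from mid-gestation embryos after removal of the internal organs, with no treatment. HAT1 puts acetyl groups on histone H4 soon after its synthesis, and the KO lines come from embryos of the HAT1 KO genotype. The labels do not say which lines are from separate embryos, so p-values measure the spread between these lines. The lanes named in the labels were not balanced: lane 6 held WT line 47 with KO lines 33 and 72, lane 7 held WT line 78 with KO line 41, and lane 8 held WT line 36. The question was whether a clustered family that is rich in heterochromatin shifts when HAT1 is lost.

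Most numbered zinc finger proteins bind DNA through tandem C2H2 fingers, each a short fold of amino acids held by a zinc ion. Many carry a KRAB domain at the N-terminus, which recruits TRIM28 (KAP1). TRIM28 in turn brings the H3 K9 methyltransferase SETDB1 and the heterochromatin protein HP1, and this machinery silences retroelements and keeps the marks of imprinted genes. The genes have multiplied by tandem duplication, so they sit in clusters, and the 3' exons of many clusters themselves carry H3 K9me3. Other members have no KRAB domain and act as promoter factors, RNA-binding proteins, ubiquitin or SUMO ligases, or regulators of mesenchymal fate.

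Total counts lay between 67720628 and 98786746 per library, and the members took between 0.532% and 0.605% of them. No member had a count of 0 in a library, and the lowest count was 28. Hat1 itself was at 17.4, 23.0 and 20.1 CPM in HAT1 WT and at 10.2, 10.0 and 10.3 CPM in HAT1 KO, a log2 fold change of -0.99 ± 0.12 (SE, edgeR adjusted p = 0.0376). With any single line left out the value stayed between -1.08 and -0.87, and the adjusted p lay between 0.0587 and 0.230. Which part of the gene is deleted was not checked. All 8 fibroblast markers were present, and their summed level, mostly Col1a1 and Col1a2, overlapped between the genotypes (60311 to 68080 CPM in HAT1 WT and 45715 to 77529 CPM in HAT1 KO). Of the 8, 6 had a log2 fold change under 0 and 2 above. Thy1 was lower without overlap (-0.31 ± 0.12, edgeR unadjusted p = 0.0350). All 8 macrophage markers were lower in HAT1 KO by at least 1.5-fold at an unadjusted p under 0.05, and 6 also at an adjusted p under 0.05 in edgeR. Their summed level was 4376 to 4749 CPM in HAT1 WT and 2079 to 2586 CPM in HAT1 KO, without overlap. The summed level was 11.2 to 12.5 and 8.87 to 12.3 CPM for endothelial markers (mostly Kdr), 1.66 to 1.72 and 0.976 to 2.05 CPM for epithelial markers, and 70.6 to 139 and 106 to 158 CPM for neural markers. Of the 4 endothelial markers tested, Pecam1 (-1.63 ± 0.41) and Cdh5 (-0.85 ± 0.28), both under 1 CPM, were lower without overlap at an unadjusted p under 0.05 in edgeR. All 8 proliferation markers were higher in HAT1 KO, 5 of them past that threshold, with summed levels of 421 to 626 CPM and 595 to 844 CPM. In bulk RNA, fewer cells of a type and less RNA per cell cannot be told apart. The lines were also unbalanced for sex-linked genes: the Y-linked Ddx3y was at 92.0 and 83.1 CPM in WT lines 36 and 47 and at 1.27 CPM or less in WT line 78 and the 3 KO lines. The part of these differences in the results below was not tested unless a value is given.

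The 6 members with the smallest p-values in edgeR were picked on those p-values alone, and none of them passed the adjusted threshold there. Their upstream sequences are shown first. They run from 250 bases before to 30 bases after the start of the RefSeq transcript (build GRCm38.p6), 5' to 3' on the strand of the gene, with matches to the searched motifs in capitals. The Zfp710 sequence lies at chr7:80024564-80024843 on the plus strand, Zfp715 at chr7:43313271-43313550 on the minus strand and Zfp941 at chr7:140822149-140822428 on the minus strand. Zfp36 lies at chr7:28379199-28379478 on the minus strand, Zfp677 at chr17:21383498-21383777 on the plus strand and Zfp367 at chr13:64153170-64153449 on the minus strand.
Zfp710: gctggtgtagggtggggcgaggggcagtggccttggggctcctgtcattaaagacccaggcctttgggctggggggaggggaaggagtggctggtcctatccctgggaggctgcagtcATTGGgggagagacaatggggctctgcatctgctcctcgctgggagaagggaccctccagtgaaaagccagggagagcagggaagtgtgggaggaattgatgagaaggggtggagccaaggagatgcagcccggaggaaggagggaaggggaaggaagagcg
Zfp715: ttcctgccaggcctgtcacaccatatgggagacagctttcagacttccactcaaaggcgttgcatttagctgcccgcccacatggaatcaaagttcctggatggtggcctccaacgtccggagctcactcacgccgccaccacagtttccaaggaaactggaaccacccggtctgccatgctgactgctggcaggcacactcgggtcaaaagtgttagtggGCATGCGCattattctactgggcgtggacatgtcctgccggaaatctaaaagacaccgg
Zfp677: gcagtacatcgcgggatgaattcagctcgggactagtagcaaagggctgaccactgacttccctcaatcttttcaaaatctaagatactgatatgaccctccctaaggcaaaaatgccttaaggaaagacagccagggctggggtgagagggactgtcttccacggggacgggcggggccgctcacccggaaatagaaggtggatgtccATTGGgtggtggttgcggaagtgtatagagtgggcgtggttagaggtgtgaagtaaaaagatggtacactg
Zfp941: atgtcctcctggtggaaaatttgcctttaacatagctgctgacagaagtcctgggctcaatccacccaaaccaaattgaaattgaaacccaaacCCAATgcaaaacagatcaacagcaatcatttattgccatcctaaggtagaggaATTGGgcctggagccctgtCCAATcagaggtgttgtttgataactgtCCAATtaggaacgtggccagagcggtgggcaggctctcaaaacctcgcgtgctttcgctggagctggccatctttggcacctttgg
Zfp36: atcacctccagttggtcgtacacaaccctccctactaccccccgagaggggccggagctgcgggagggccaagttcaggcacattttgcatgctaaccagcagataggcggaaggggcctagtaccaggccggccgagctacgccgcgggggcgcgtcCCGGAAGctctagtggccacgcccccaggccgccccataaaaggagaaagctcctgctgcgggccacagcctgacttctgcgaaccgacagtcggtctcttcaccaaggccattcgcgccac
Zfp367: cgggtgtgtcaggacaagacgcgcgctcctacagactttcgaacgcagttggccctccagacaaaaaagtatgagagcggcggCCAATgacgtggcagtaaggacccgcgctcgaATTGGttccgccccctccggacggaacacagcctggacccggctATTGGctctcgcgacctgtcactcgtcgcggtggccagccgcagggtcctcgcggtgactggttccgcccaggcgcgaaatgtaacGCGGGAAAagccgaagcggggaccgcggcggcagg

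The 6 sequences were not alike in the motifs they held. The letters searched, on both strands, began with CCAAT, the box bound by the factor NF-Y in many growth-related promoters. The core bound by ETS factors was searched as CCGGAAG, and the TATA box as TATAAA. The E2F elements were TTTCCCGC and TTTGGCGC, the core of NRF1 sites was GCATGCGC, and the cyclic AMP response element was TGACGTCA. Zfp367, the only member of the 6 with a higher level in HAT1 KO, held 3 CCAAT boxes at -167, -135 and -91 and an E2F element that begins 5 bases before the start. Zfp941 held 4 CCAAT boxes, and Zfp677 and Zfp710 held 1 each. Zfp36 held an ETS core at -92, and Zfp715 an NRF1 core at -29. The printed stretch had 34 CpG dinucleotides in Zfp367 and 21 in Zfp36, against 4 in Zfp710 and 5 in Zfp941.

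Over the family, 249 members had a RefSeq promoter of 300 bases (250 before the start and 50 after). A CCAAT box was found in 121 of them (48.6%), compared with 38.4% of the 11483 promoters of all genes tested and 38% of all 27025 promoters. An ETS core was found in 56 (22.5%), compared with 16.9% of the genes tested and 9.14% of all promoters. The TATA box was found in 7.23% of members and 7.59% of the genes tested, the E2F elements in 4.42% and 2.95%, the NRF1 core in 5.62% and 4.99%, and the cyclic AMP element in 2.81% and 3.15%. The CCAAT box and the ETS core stood in 53.4% and 24.7% of the 146 promoters of members with a KRAB domain pattern, and in 41.6% and 19.8% of the 101 without it. The median promoter held 10.5 CpG dinucleotides with the pattern and 20 without it. A match is a run of letters and does not show that a factor binds there.

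The family as a whole differed little between the genotypes. No member passed an adjusted p of 0.05 in the edgeR quasi-likelihood test over 14773 genes, and the smallest adjusted p was 0.0775; over all genes tested 78 did (0.528%). At an unadjusted p under 0.05, 11 members were lower in HAT1 KO and 2 were higher, together 4.33% of the family. Zfp941, among the 11, had entered through its HAT1 WT level. Over all genes tested the shares were 8.77% lower, 5.88% higher and 14.6% in either direction, all above the shares of the members. With a change of at least 1.5-fold added, 4 members were lower and 0 were higher (1.33%), compared with 4.62% lower, 1.5% higher and 6.11% in either direction over all genes tested. The 3 KO values all lay on 1 side of the 3 WT values in 42 members, 33 lower and 9 higher, which is 14.0% compared with 22.0% of all genes tested. With 3 lines against 3, the exact permutation p of a single gene cannot go under 0.1.

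The direction of the members leaned to lower values by a small amount. The median log2 fold change was -0.04 for the members and 0.01 for all genes tested. A value above 0 was fitted for 109 members (36.3%), compared with 51.5% of all genes tested. The quartiles of the members were -0.13 and 0.04, compared with -0.17 and 0.16 over all genes tested and with -0.13 and 0.15 over the 12097 genes at or above the level of the lowest member. The interquartile range was 0.18 for the members and 0.27 for those 12097 genes, which share the lower bound of level but reach far higher levels than the 173 CPM of the highest member. The fits of 7 members (2.33%) lay beyond 1.5-fold in either direction, compared with 9.66% of those 12097 genes. All 7 were among the 100 members of lowest level, where the median SE was 0.19, compared with 0.09 among the 100 of highest level. The lean was smaller in voom with sample quality weights. There the median was -0.019 for the members and -0.003 for all genes tested, and 45% and 49.4% were higher.

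**Figure D1:**
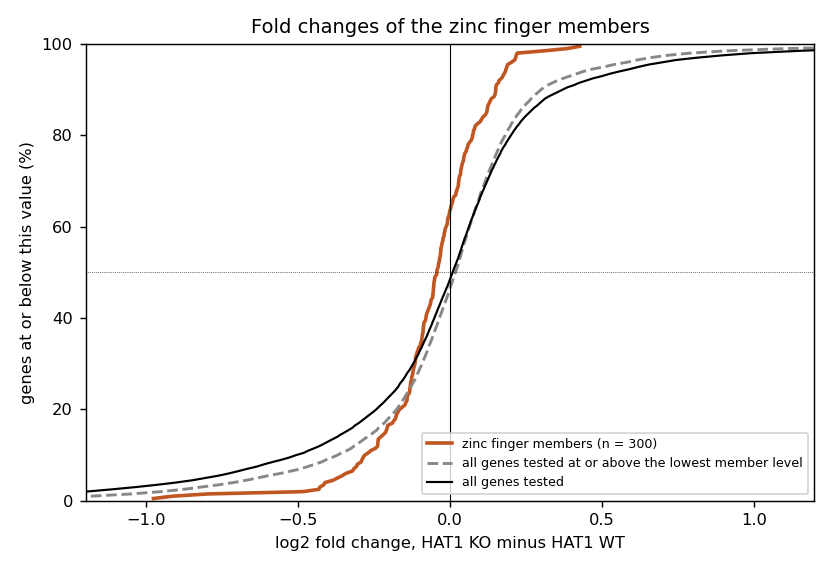
Cumulative share of genes (y axis, percent) at or below each log2 fold change of HAT1 KO minus HAT1 WT (x axis), for the 300 members, all genes tested, and genes tested at or above the level of the lowest member. The curve of the members is steeper and crosses 50% at -0.04, left of the other curves.

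The lean was largest with a line from each genotype, WT line 78 and KO line 72, in the comparison. In each line, the level of every member was set against its mean over the 6 lines, on the scale of log2(CPM + 0.5). The median deviation of the members in HAT1 WT was -0.02 (line 36), -0.01 (line 47) and 0.09 (line 78). In HAT1 KO it was -0.00 in line 33, 0.01 in line 41 and -0.05 in line 72. WT line 78 thus lay above and KO line 72 below, while the other 4 lines of both genotypes lay within 0.02 of their mean. Over all genes tested the same deviation lay between -0.01 and 0.01 in every line. Of the 300 members, 125 had their highest value in WT line 78 and 98 their lowest in KO line 72. 

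Without WT line 78 the median log2 fold change of the members was -0.00 and 48.7% were higher, and without KO line 72 it was -0.02 with 46.0% higher. Over all genes tested the median was 0.03 with 54.5% higher without WT line 78, and 0.00 with 50% higher without KO line 72, so the members still lay below them in both. Without both lines the median was 0.01, compared with 0.00 over all genes tested, and 51.3% of the members were higher. These lines were picked after seeing that they were the highest WT and the lowest KO line for the members. Leaving both out therefore raises the median by the way they were picked, and this value cannot show where the lean comes from. Leaving out any other line gave medians between -0.06 and -0.05. The 11 lower calls became 5 without WT line 78 and 7 without WT line 47, and the 2 higher calls became 9 without KO line 72, 4 without line 78 or 41, and 1 without line 36, 47 or 33. The 4 members past 1.5-fold became 2 without WT line 78 and 7 without KO line 41. With 1 line left out, 2.67% to 5.67% of members passed the unadjusted threshold in either direction, compared with 9.58% to 18.5% of all genes tested. With 1.5-fold added, the shares were 0.667% to 2.33% of members and 4.58% to 7.24% of all genes tested. WT line 78 was also the HAT1 WT line with low Y-linked transcripts, and it was sequenced in lane 7 with KO line 41; the part of either in its position was not tested.

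**Figure D2:**
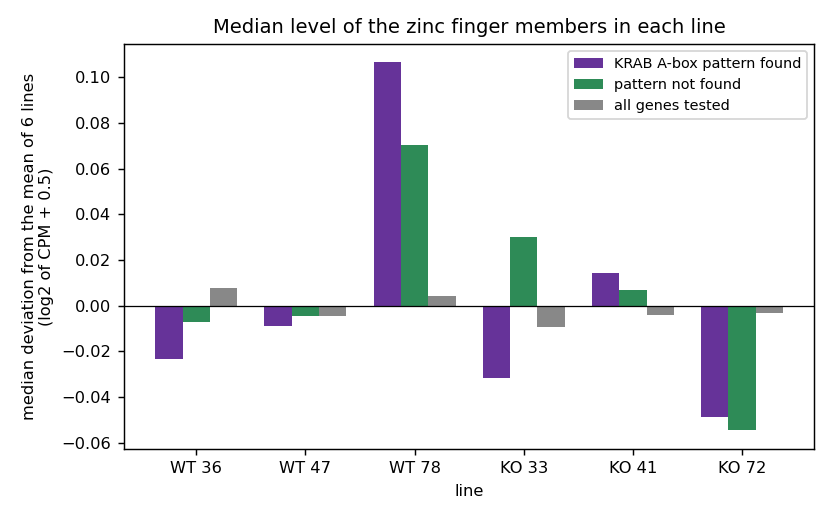
Median deviation of log2(CPM + 0.5) from the mean of the 6 lines (y axis) in each line (x axis), for members with a KRAB A-box pattern, members without it and all genes tested. Members of both kinds stand highest in WT line 78 and lowest in KO line 72, and all genes tested stay within 0.01 of 0.

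Among single members, Zfp710 had the smallest p. It encodes a protein of 666 residues with 11 C2H2 motifs and no KRAB pattern (chromosome 7 from 80024814 to 80094173, plus strand, GRCm38). Its level was 71.8, 72.5 and 79.2 CPM in HAT1 WT and 56.8, 48.7 and 54.8 CPM in HAT1 KO. The KO lines all lay below the WT lines, at 71.7% of the WT mean, with a log2 fold change of -0.48 ± 0.08 (SE, edgeR unadjusted p = 0.000905, adjusted p = 0.0775).

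Zfp367 showed the clearest difference in the other direction. It lies on chromosome 13 from 64133018 to 64153202 on the minus strand and encodes 340 residues with 2 C2H2 motifs. Its level was 17.3, 19.9 and 19.5 CPM in HAT1 WT and 25.3, 25.7 and 25.6 CPM in HAT1 KO. The 3 KO lines, with an SD of 0.207 CPM, lay above every WT line, with a log2 fold change of 0.44 ± 0.08 (SE, edgeR adjusted p = 0.101). Of the 8 proliferation markers, 3 also had every KO line above every WT line and 5 overlapped; their part in the Zfp367 difference was not tested.

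Of the KRAB genes under 5 CPM, 3 were lower in HAT1 KO at an unadjusted p under 0.05. Zfp941, among the 3, was a member only through its HAT1 WT level, so its direction is partly set by the choice of members. Zfp677 on chromosome 17 was at 4.68, 4.77 and 5.11 CPM in HAT1 WT and 3.18, 1.73 and 2.81 CPM in HAT1 KO, a log2 fold change of -0.91 ± 0.25 (adjusted p = 0.194). Zfp941 on chromosome 7 was at 1.83, 1.91 and 1.53 CPM and at 0.651, 0.947 and 1.09 CPM, from 138, 154 and 151 counts and 58, 64 and 84 counts (-0.97 ± 0.27, adjusted p = 0.201). Zfp976 on chromosome 7 was at 3.71, 3.39 and 5.13 CPM and at 2.71, 2.78 and 1.85 CPM (-0.74 ± 0.25, adjusted p = 0.267). In each of the 3 genes every KO line lay below every WT line. The symbol Zfp976 stood on a second row of the table at a level under 1 CPM, and only the row at 3.26 CPM is a member.

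Zfp715, a KRAB gene with 19 C2H2 motifs in the same chromosome 7 cluster as Zfp976, was at 29.6, 28.7 and 32.4 CPM in HAT1 WT and 25.3, 24.4 and 24.8 CPM in HAT1 KO. The KO values were close together and all below the WT values (-0.28 ± 0.07, edgeR adjusted p = 0.188). Zfp783 was at 2.93, 2.57 and 3.50 CPM in HAT1 WT and 2.28, 1.14 and 0.856 CPM in HAT1 KO. Its log2 fold change of -1.07 ± 0.39 was the lowest of the family (edgeR adjusted p = 0.300), and GENCODE M21 lists it as a transcribed pseudogene, so its count is uncertain where reads of a related gene map to it.

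Zfp36 and Zfp704 carry no KRAB pattern. Zfp36 encodes tristetraprolin, a CCCH protein that binds AU-rich mRNAs such as those of cytokines and speeds their decay. It was at 29.4, 30.9 and 29.9 CPM in HAT1 WT and at 20.7, 21.2 and 27.2 CPM in HAT1 KO, so that KO line 72 lay nearest to the WT lines (-0.38 ± 0.12, edgeR adjusted p = 0.238). The macrophage markers were lower in all 3 KO lines as well, and their part in the Zfp36 difference was not tested. Zfp704 was at 57.8, 56.6 and 60.3 CPM in HAT1 WT and at 45.4, 53.1 and 41.1 CPM in HAT1 KO (-0.32 ± 0.10, edgeR adjusted p = 0.241).

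The other 7 members with the smallest p among those higher in HAT1 KO without overlap had smaller differences than Zfp367. Zfp275, an X-linked gene, was at 75.9, 74.7 and 80.8 CPM in HAT1 WT and at 91.2, 83.1 and 89.0 CPM in HAT1 KO (0.19 ± 0.07, edgeR unadjusted p = 0.0273, adjusted p = 0.279). WT line 78, in which Y-linked transcripts were low, was the WT line nearest to the KO lines, and the part of sex in the difference was not tested. The other 3 X-linked members gave no common direction: Zfp449 overlapped between 11.4 and 14.1 CPM, Zfp300 overlapped between 1.01 and 1.54 CPM, and Zfp182 was lower in HAT1 KO at 4.86, 4.81 and 4.34 CPM compared with 5.24, 5.45 and 6.48 CPM. Zfp523, a relative of the promoter factor Zfp143, had a log2 fold change of 0.18 ± 0.08, Zfp961 of 0.27 ± 0.13, Zfp637 of 0.18 ± 0.09 and Zfp326, a subunit of a complex that links transcription with splicing, of 0.13 ± 0.07. Zfp81 and Zfp689 were at 0.12 ± 0.10 and 0.15 ± 0.16. These 6 genes did not pass the unadjusted threshold in edgeR.

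**Figure D3:**
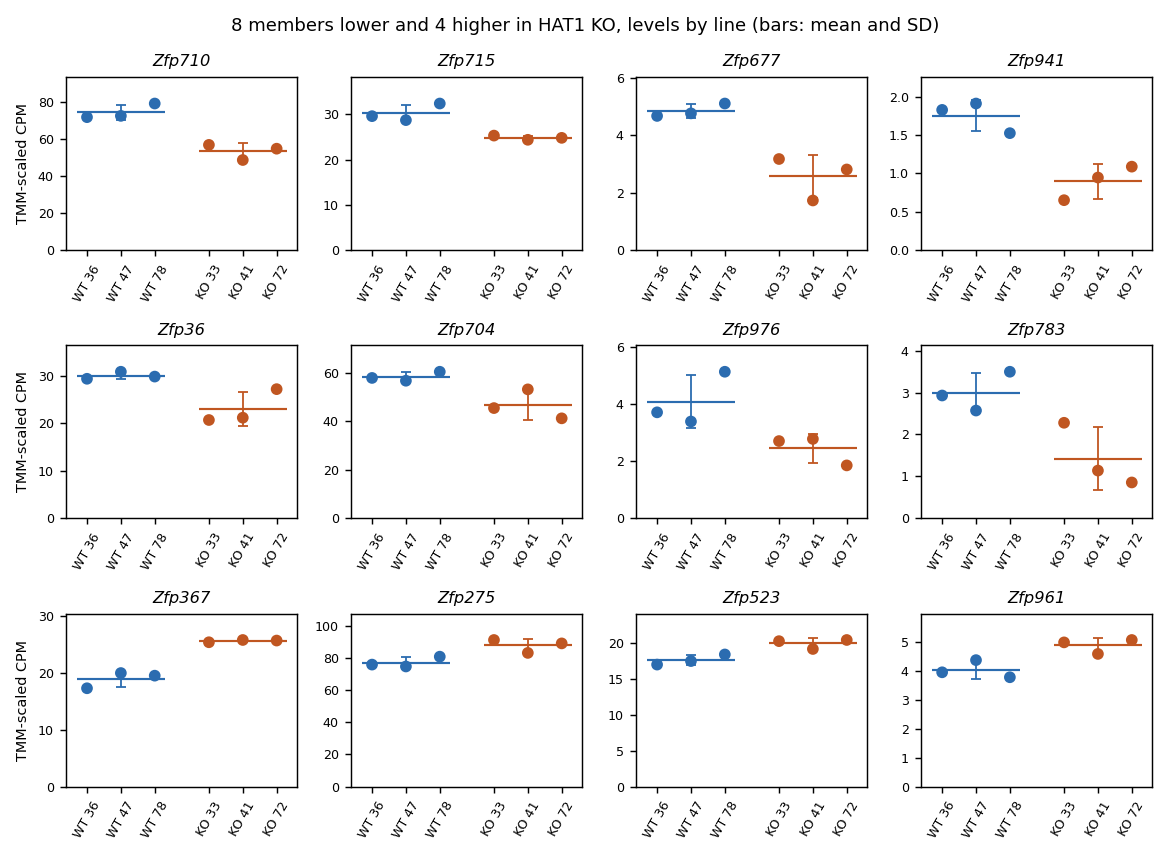
TMM-scaled CPM (y axis, from 0) in each line (x axis) for 8 members lower and 4 higher in HAT1 KO, with points for lines and bars for the mean ± SD of 3 lines. Every KO line lies on 1 side of the WT lines in each panel, which is how the genes were chosen.

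The remaining 3 of the 13 members under the unadjusted threshold were Zfp764 (-0.29 ± 0.11), Zfp866 (-0.22 ± 0.08) and Zfp292 (-0.26 ± 0.11), which are named because their values were seen. The call rule also mattered. The DESeq2 Wald test gave 5 members an adjusted p under 0.05 (Zfp710, Zfp367, Zfp677, Zfp715 and Zfp941), where it called 871 genes in all. Voom with sample quality weights gave 1, Zfp710 (adjusted p = 0.0423), among 267 genes. Zfp710, Zfp715, Zfp677, Zfp941 and Zfp367 kept an unadjusted p under 0.05 in edgeR whichever line was left out. Of these, Zfp941 had entered the family through its HAT1 WT level. Zfp783 lost it without any single line but KO line 33, Zfp275 without line 36, 47 or 33, Zfp36 without line 47, 33 or 41, Zfp704 without line 78 or 33, and Zfp976 without line 78 or 72. With lane in the model, Zfp715, Zfp941, Zfp976, Zfp36, Zfp783 and Zfp275 also missed the threshold.

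The protein class of a member made little difference. A complete protein was available for 297 members, and a KRAB A-box pattern was found in 167 and not in 130, with a median of 12 and 7 C2H2 motifs. The median log2 fold change was -0.04 in both classes, with 36.5% and 36.9% of genes higher. Among members with the pattern 6 were lower and 0 higher at an unadjusted p under 0.05, and among those without it 4 were lower and 2 higher. These are 3.59% and 4.62% of the 2 classes, both under the 14.6% of all genes tested. Zfp941, called with the pattern, had entered through its HAT1 WT level. The levels differed: the median was 5.30 CPM with the pattern and 20.4 CPM without it. By the number of C2H2 motifs, the median was -0.07 for the 15 members with 0 to 1, -0.04 for the 103 with 2 to 9, -0.03 for the 112 with 10 to 14 and -0.06 for the 67 with 15 or more. The most motifs, 37, were found in Zfp142.

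The position of a member in a cluster made little difference either. A cluster was a run of at least 3 numbered Zfp genes of GENCODE M21 with gaps of at most 500 kb between starts. The 179 members in 31 clusters had a median log2 fold change of -0.04 with 39.7% higher, and the 121 members outside had -0.05 with 31.4% higher. At an unadjusted p under 0.05, 7 were lower and 1 higher inside clusters, and 4 were lower and 1 higher outside. These are 4.47% and 4.13% of the members there, compared with 14.6% of all genes tested. Of the 13 clusters with at least 5 members, 8 had a median under 0, and in none of them did all members lie in 1 direction.

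The largest cluster, on chromosome 17 from 21008903 to 23599487, held 23 members, 22 of them with a KRAB pattern. Its median was -0.01, with 10 members higher and 13 lower. The lowest was Zfp677 and the highest Zfp760 (0.34 ± 0.33), whose level was 4.19, 4.26 and 5.24 CPM in HAT1 WT and 4.30, 4.08 and 8.97 CPM in HAT1 KO. Line 72 alone was high for Zfp760, and without it the value turned to -0.11. The next, on chromosome 13 from 66669928 to 67827002, held 15 members, all with the pattern, and had a median of -0.12 with 12 members lower, none of which passed the threshold. Its lowest was Zfp455 (-0.41 ± 0.28) and its highest Zfp273 (0.17 ± 0.28). Without KO line 41, Zfp455 was at -0.68 (edgeR unadjusted p = 0.0394) and Zfp273 at -0.09. With any single line left out, Zfp455 lay between -0.68 and -0.26. The 6 members of the chromosome 7 cluster with Zfp715 and Zfp976 had the lowest median of the 13, -0.21, and a cluster of 10 on chromosome 17 had the highest, 0.07.

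**Figure D4:**
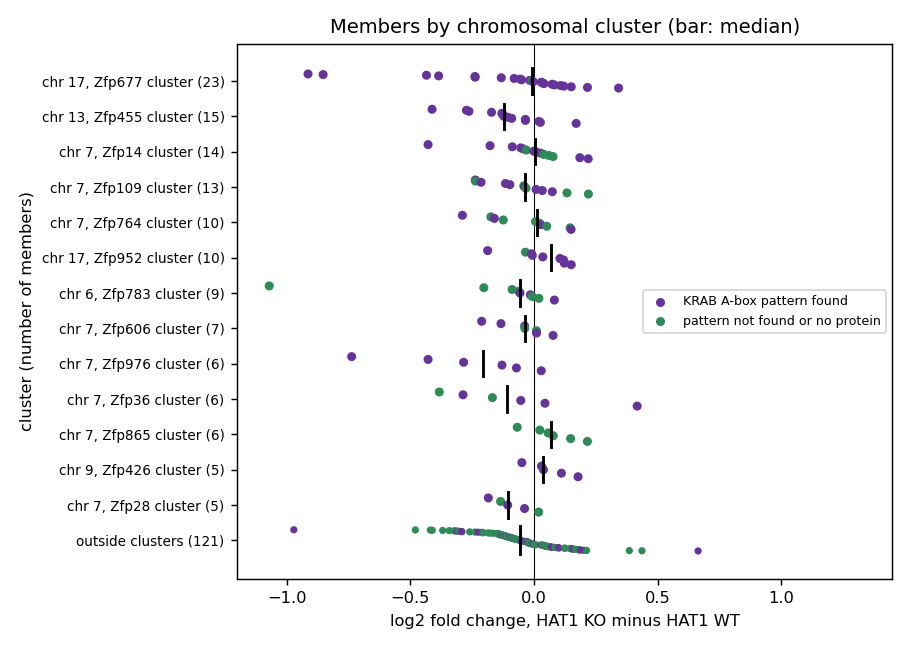
Log2 fold change of HAT1 KO minus HAT1 WT (x axis) for each member of the 13 clusters with at least 5 members and for the 121 members outside clusters (rows, named by chromosome and the lowest member). Points are genes, coloured by KRAB pattern, and bars are medians, which lie between -0.21 and 0.07 with members on both sides of 0 in every cluster.

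By chromosome, 79 members lay on chromosome 7 (median -0.04, 6 lower and 0 higher at an unadjusted p under 0.05) and 40 on chromosome 17 (median 0.01, 1 lower and 0 higher). Over all genes tested, 8.77% were lower and 5.88% higher at that threshold. All 12 members on chromosome 4 had a log2 fold change under 0, with a median of -0.17 and a range from -0.41 to -0.00. This chromosome is named because its values were seen. Of the whole family 63.7% lay under 0, and 17 of 20 chromosomes had a median under 0. The 3 members on chromosome 1 and the 3 on chromosome 14 were all lower too. Only 1 of the 12, Zfp292, was under the unadjusted threshold.

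Per exon length, most of the 6 highest members were not called KRAB genes. Zfp503 was at 26.1 CPM per kb of exons, Zfp469 at 19.6, Zfp703 at 17.2, Zfp706 at 16.7, Zfp106 at 16.6 and Zfp266, the only KRAB gene among them, at 15.1. The HAT1 WT and HAT1 KO levels of 5 of the 6 overlapped. Zfp469, listed as a non-coding gene in GENCODE M21, was at 56.3, 63.9 and 64.3 CPM in HAT1 WT and at 69.3, 73.7 and 34.4 CPM in HAT1 KO, so that KO line 72 stood apart. Zfp106 did not overlap, at 170, 176 and 197 CPM and at 158, 168 and 167 CPM (-0.14 ± 0.08, edgeR unadjusted p = 0.114).

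The regulators of mesenchymal and adipocyte fate varied between lines within a genotype. None of 6 passed the unadjusted threshold, and their median log2 fold change was -0.09. Zfp423, which commits cells to the preadipocyte fate, was at 3.45, 3.18 and 6.22 CPM in HAT1 WT and at 6.95, 3.85 and 1.49 CPM in HAT1 KO. Its paralog Zfp521, which opposes that fate, was at 68.9, 65.6 and 97.5 CPM and at 81.7, 80.9 and 51.6 CPM. Both were lowest in KO line 72, as was Zfp516, a brown fat regulator, at 107, 105 and 123 CPM and at 106, 95.3 and 67.4 CPM. Zfp703, a corepressor of the NET family, went the other way in that line, with 61.5, 50.7 and 86.5 CPM in HAT1 KO compared with 57.9, 55.0 and 39.2 CPM in HAT1 WT. The NET protein Zfp503 was even, between 101 and 115 CPM in all lines.

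The members known to guard imprints and silence retroelements were measured at overlapping levels. None of the 5 passed the threshold, with a median of -0.03. Zfp57, which keeps methylation at imprinted control regions, was at 4.71, 5.70 and 4.98 CPM in HAT1 WT and 6.51, 5.33 and 3.23 CPM in HAT1 KO. Zfp445, which acts at the same regions, was at 26.4, 29.6 and 31.6 CPM and at 27.5, 26.8 and 26.5 CPM. Zfp809, which silences murine leukaemia virus DNA, was at 10.0, 10.0 and 14.5 CPM and at 11.3, 8.20 and 13.0 CPM. Zfp568, a repressor of a placental Igf2 promoter, was at 30.5, 34.1 and 42.7 CPM and at 39.3, 35.0 and 35.1 CPM. Zfp932, which targets endogenous retroviruses, was between 3.43 and 4.20 CPM in all lines. Zfp708 was below the filter of the test and was no member.

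Among partners of chromatin complexes, none of 5 passed the threshold, with a median of -0.14. Zfp462, a partner of the H3 K9 methyltransferases EHMT1 and EHMT2, was at 76.1, 83.8 and 94.2 CPM in HAT1 WT and 74.1, 78.6 and 38.3 CPM in HAT1 KO. Line 72 was again the low one. Zfp644, another EHMT partner, lay between 86.2 and 108 CPM and Zfp410, an activator of the remodeler gene Chd4, between 19.7 and 22.1 CPM, with overlap in both. Zfp618, a partner of the UHRF2 protein, did not overlap, at 28.0, 24.2 and 25.8 CPM and at 23.0, 23.7 and 24.0 CPM (-0.14 ± 0.08, edgeR unadjusted p = 0.130). Zfp638, which brings silencing to unintegrated viral DNA, was at 72.6, 75.2 and 90.9 CPM and at 65.6, 69.9 and 81.1 CPM.

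Of the 9 promoter and general regulators none passed the threshold. All 9 had a log2 fold change under 0, with a median of -0.09, where 63.7% of the family did. Their summed level overlapped, at 462 to 516 CPM in HAT1 WT and 401 to 465 CPM in HAT1 KO, and was highest in WT line 78 and lowest in KO line 72. Zfp217, a partner of CtBP corepressors, had no overlap, at 52.0, 58.0 and 62.0 CPM in HAT1 WT and 51.7, 48.6 and 35.2 CPM in HAT1 KO. Its log2 fold change was -0.34 ± 0.16 (edgeR unadjusted p = 0.0674), and without KO line 33 it was -0.45 (edgeR unadjusted p = 0.0357). Zfp687 was at 30.1, 29.1 and 29.2 CPM and at 27.7, 28.1 and 27.1 CPM (-0.09 ± 0.06). Its partners Zfp592 and Zfp532 overlapped, between 50.8 and 60.2 CPM and between 33.1 and 52.8 CPM. Zfp143, Zfp148, Zfp281, Zfp384 and Zfp609 overlapped too.

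Of the 7 members with roles in RNA, ribosomes and ubiquitin, Zfp36 alone passed the unadjusted threshold, and the list, with Zfp593, which is no member, had a median of 0.02. Zfp598, the ligase that marks collided ribosomes, was at 32.4, 32.9 and 37.4 CPM in HAT1 WT and at 47.6, 32.2 and 39.3 CPM in HAT1 KO. Zfp91, a ubiquitin ligase, was between 132 and 146 CPM and Zfp451, a SUMO ligase, between 78.1 and 90.8 CPM. Of 4 members with roles in mitosis and DNA damage none passed the threshold, and their median was 0.02. Zfp207, which loads BUB3 on kinetochores, was at 90.9, 98.0 and 91.2 CPM and at 109, 102 and 86.5 CPM.

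The machinery that KRAB proteins recruit was measured in 23 genes of a list of 24, none of them members. At an unadjusted p under 0.05, 3 were higher in HAT1 KO and 1 was lower, and none passed the adjusted threshold in edgeR. These 4 are 17.4% of the list, near the 14.6% of all genes tested. The adjusted result depended on the method. In the DESeq2 Wald test, which called 871 genes in all, the adjusted p was 0.0120 for Uhrf1, 0.0220 for Cbx5 and 0.0360 for Suv39h1. Trim28, the corepressor itself, overlapped at 273, 302 and 251 CPM in HAT1 WT and 337, 320 and 257 CPM in HAT1 KO, and Setdb1 at 47.6, 48.9 and 48.6 CPM and at 47.5, 47.7 and 41.3 CPM. Cbx5, which encodes HP1 alpha, was at 232, 261 and 214 CPM and at 319, 317 and 282 CPM (0.38 ± 0.10, edgeR adjusted p = 0.188), and with lane in the model its unadjusted p was 0.0596 in edgeR. The H3 K9 methyltransferase Suv39h1 was at 11.7, 15.4 and 13.2 CPM and at 18.8, 17.6 and 18.3 CPM (0.44 ± 0.12, edgeR adjusted p = 0.194). Uhrf1, which maintains DNA methylation at replication, was at 44.2, 65.8 and 43.3 CPM and at 92.9, 81.0 and 75.2 CPM (0.70 ± 0.18, edgeR adjusted p = 0.187).

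In these 3 genes every KO line lay above every WT line, as in the proliferation markers Top2a, Mcm2 and Mcm5, while Mki67, Pcna, Ccnb1, Cdk1 and Bub1 overlapped. The part of proliferation in them was not tested. The 1 lower gene was Morc3, a nuclear ATPase, at 45.1, 45.8 and 47.2 CPM and at 42.0, 40.6 and 38.3 CPM (-0.19 ± 0.06, edgeR adjusted p = 0.258), whose call was lost without line 47, 78, 41 or 72. The other 19 genes, among them Atf7ip, Cbx1, Cbx3, Ehmt1, Ehmt2, Mphosph8 and Pphln1, did not pass the unadjusted threshold.

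**Figure D5:**
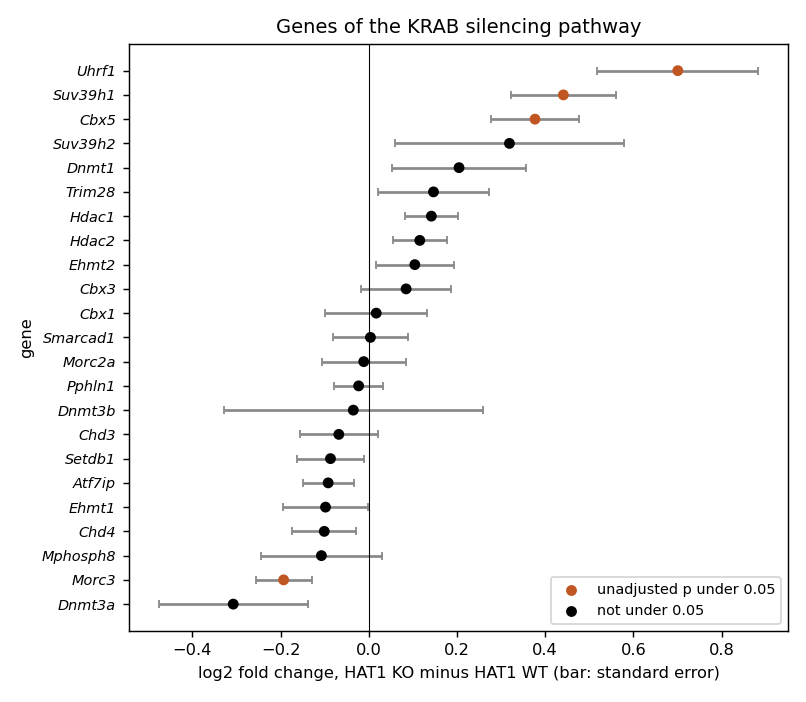
Log2 fold change of HAT1 KO minus HAT1 WT with its standard error (x axis) for 23 genes of the KRAB silencing pathway (y axis). Uhrf1, Suv39h1 and Cbx5 stand to the right of 0 and Morc3 to the left, in the colour for an unadjusted p under 0.05, and Trim28 and Setdb1 are in black.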

How the data were processed

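RNA-seq of 3 HAT1 WT and 3 HAT1 KO pMEF lines was analysed from a single table in which the authors deposited raw read counts per gene, not normalized. The labels name edgeR and mm10, and the aligner, counter and strand setting are not given in the sources used here, so genes with close copies carry uncertain counts. The authors' own comparison columns (fold change, mean level, F, p and q) were not used, and no column of sample values went unassigned (0).

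Genes kept by filterByExpr (14773) were scaled by TMM and tested with edgeR 4.0.16 (glmQLFit, glmQLFTest, genotype alone, two-sided) in R 4.3.3, with Benjamini-Hochberg adjustment over all of them. The SE is the fold change over the square root of F. Levels are TMM-scaled CPM. Total counts of 67720628 or more leave little counting error except in low genes. The low genes Pecam1, Cdh5 and Krt18 had only even counts in every line, so a count may not stand for 1 sequenced fragment. This was not checked. The test was checked on simulated data.

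Positions and exon lengths are from GENCODE M21 (GRCm38). Proteins were translated from its transcripts with Biopython 1.88. A KRAB A-box and C2H2 motifs (C, 2 to 4 residues, C, 12, H, 3 to 5, H) were found by pattern. Promoters were matched by symbol to RefSeq.

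The members and gene lists were chosen with earlier results of these data known. Named members were the 8 lower and the 8 higher genes with the smallest p among those without overlap, the 6 highest per exon length, X-linked members, role lists, the silencing pathway, Hat1, and the extremes of the 2 largest clusters. Alternatives were DESeq2 1.42.0, voom in limma 3.58.1, other scalings and filters, lane, halved counts, other member and cluster rules, and leaving out lines.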

Additional observations from a re-analysis of the deposited data

How the results depend on the processing

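Under every alternative run, the family median stayed within 0.07 of 0 on the log2 scale. Leaving out 1 line gave medians from -0.06 to -0.00, 34.0% to 48.7% of members higher, 5 to 13 lower and 1 to 9 higher calls at an unadjusted p under 0.05, 2 to 7 past 1.5-fold and 58 to 73 without overlap (fewer lines overlap less). Those fits called 2.67% to 5.67% of members and 9.58% to 18.5% of all genes tested at an unadjusted p under 0.05. Past 1.5-fold as well, the shares were 0.667% to 2.33% and 4.58% to 7.24%. Of all genes tested, 29.9% to 38.1% were without overlap. The same fits gave medians from -0.073 to 0.016 for members with a KRAB pattern and -0.060 to 0.016 in clusters, and 0 to 1 lower and 3 to 4 higher pathway genes. Hat1 was between -1.08 and -0.87, Zfp273 between -0.088 and 0.36 and Zfp760 between -0.11 and 0.54. Without WT line 78 and KO line 72, chosen after seeing the data, as were all counts at an unadjusted p, the median was 0.0072 (0.010 outside clusters), 51.3% were higher, 6 lower and 10 higher members and 0 lower pathway genes were called, Zfp760 was -0.0044, and Hat1 was -0.99 (adjusted p = 0.0856). That fit called 5.33% of members and 18.0% of all genes tested at an unadjusted p under 0.05. With lane in the model, 4 lower, 1 higher and 1 member past 1.5-fold were called, with 0 lower and 2 higher pathway genes, and Hat1 was -1.10 (adjusted p = 0.529). That fit, in which WT line 36 was alone in its lane, called 1.67% of members and 6.30% of all genes tested at an unadjusted p under 0.05. Its adjusted calls over all genes were 2, compared with 78 without lane. DESeq2 called 5 members at an adjusted p under 0.05, with NA kept as NA, and voom called 1. In voom 45% of members were higher, compared with 49.4% of all genes tested, and there were 5 higher calls. The voom median was -0.019 for the members and -0.003 over all genes tested. Members of at least 5 CPM (203) gave 7 lower calls, 0 past 1.5-fold and 27 without overlap (13.3%, compared with 22.0% of all genes tested). The cause of these changes was not tested. No paired analysis was possible because the genotypes share no line number. Low counts limit members near 1 CPM, where the lowest count was 28.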
